A study of Mus musculus with 9 samples.

Results

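The immunoglobulin genes of whole mouse liver are described here: the constant regions, the variable (V) segments and the joining chain gene Jchain. Members were chosen by name and selected on their summed raw count: every gene whose name starts with Ighv, Igkv, Iglv, Ighg, Igha, Ighm, Ighd, Ighe, Igkc or Iglc, plus Jchain, without Ighmbp2, with at least 20 counts summed over 9 libraries. Of 54532 genes in the table, 382 carried such a name, 190 had any count, and 66 reached the minimum and are the members. The summed count that chose them is a property of the whole data set and is given as a description only. Just inside the minimum lay Igkv6-13 and Igkv8-19 with 21 counts each and Igkv4-57-1 with 20 counts. Just outside it lay Ighv1-55 and Igkv6-14 with 19 counts each and Ighv5-6 with 18 counts. The 66 members held 98.4% of the 45483 counts of all the named genes.

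RNA was sequenced from the liver of male C57BL/6 mice in 3 groups of 3 libraries. The old Fabp4 shRNA mice were 20 months old and had received, at 14 months, adeno-associated virus 9 (AAV9, a gene delivery vector) carrying a short hairpin RNA against Fabp4, the gene of a fatty acid carrier of fat cells and macrophages. The old control mice had the same age and the same virus with a negative control hairpin, injected likewise into the tail vein and the subcutaneous white fat. The young mice were 8 weeks old, and the labels describe no injection of them, so that age and virus cannot be told apart in comparisons with the young group. Nothing in the labels says how the numbered animals were chosen or whether litters or cages were shared, so p-values measure the spread between these libraries.

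An antibody is built from heavy and light chains, each with a variable part that binds antigen and a constant part that sets its class. B cells join a V segment to shorter segments of the same locus by cutting the DNA, so the V segment a B cell uses is passed to its daughters. A resting B cell makes IgM and IgD from the same transcript by splicing, and after activation it can switch its DNA to IgG, IgE or IgA and can become a plasma cell, which secretes antibody and carries far more of its RNA than a resting B cell. In the liver such cells sit among the sinusoids and around the portal veins, and hepatocytes carry IgA into bile. In RNA of a whole tissue, fewer cells of a type and less RNA per cell cannot be told apart.

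The members lie in 4 places of GRCm38. The heavy chain locus on chromosome 12, minus strand, holds 18 members between 113254830 and 115920712. These are the constant genes Ighm, Ighd, Ighg3, Ighg1, Ighg2b, Ighg2c and Igha and 11 of 185 Ighv segments. The kappa locus on chromosome 6 holds 41 members between 67609713 and 70726966, which are Igkc and 40 of 160 Igkv segments. The lambda locus on chromosome 16 holds 6 members between 19061618 and 19260859, which are Iglc1, Iglc2, Iglc3, Iglv1, Iglv2 and Iglv3. Jchain, whose product links IgA dimers and IgM pentamers, lies on chromosome 5 between 88519809 and 88527891. Ighe, the constant gene of IgE, had 10 counts and fell outside, Iglc4 had 0, and the 20 Ighd diversity segments had 0 counts in all libraries.

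Igkv3-2 is the V segment on which most of the results on V use turn. It is shown with Igkv3-1, its nearest relative in the kappa locus, and with Igkv3-12, the member of its family that led in 1 old control library. Each line gives, 5′ to 3′, the first 300 of the 310 bases of the V exon on the plus strand of chromosome 6 in GRCm38, from the GENCODE mouse release 21 transcripts. Capitals mark the bases that differ from Igkv3-2.
Igkv3-2 (chr6:70698758-70699057): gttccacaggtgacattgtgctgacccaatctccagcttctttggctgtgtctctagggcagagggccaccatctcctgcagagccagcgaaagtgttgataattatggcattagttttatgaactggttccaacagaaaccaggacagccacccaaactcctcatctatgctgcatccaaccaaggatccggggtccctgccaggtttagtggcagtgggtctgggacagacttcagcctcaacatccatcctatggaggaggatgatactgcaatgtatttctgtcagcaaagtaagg
Igkv3-1 (chr6:70703868-70704167): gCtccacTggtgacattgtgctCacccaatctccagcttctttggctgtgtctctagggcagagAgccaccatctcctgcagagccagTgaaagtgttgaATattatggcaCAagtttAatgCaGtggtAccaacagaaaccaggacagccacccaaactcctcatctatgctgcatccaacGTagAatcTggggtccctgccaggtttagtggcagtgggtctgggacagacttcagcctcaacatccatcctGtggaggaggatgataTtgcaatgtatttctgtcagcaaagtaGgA
Igkv3-12 (chr6:70518540-70518839): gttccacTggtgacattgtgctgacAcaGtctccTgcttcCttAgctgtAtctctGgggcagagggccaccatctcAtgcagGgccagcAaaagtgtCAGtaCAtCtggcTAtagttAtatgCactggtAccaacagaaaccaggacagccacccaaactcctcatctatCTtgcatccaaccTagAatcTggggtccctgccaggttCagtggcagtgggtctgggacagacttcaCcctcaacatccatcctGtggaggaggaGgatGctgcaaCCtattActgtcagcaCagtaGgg
Over the whole exon, Igkv3-1 differed from Igkv3-2 at 22 bases (92.9% identity), and its longest run in common with Igkv3-2 was 63 bases. Igkv3-12 differed at 38 bases (87.7% identity) with a longest common run of 40 bases. The longest run that any other V kappa segment shared with Igkv3-2 was 73 bases, in Igkv3-5. Igkv3-1 had 6 counts in all 9 libraries, against 282 for Igkv3-2. The gap from Igkv3-2 to Igkc is 27.4 kb, and among the members no V segment lies closer to Igkc.

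Other V segments are less distinct. Of the 54 V members, 33 had at least 95% identity to another segment of their locus, and 19 shared a run of at least 100 bases with one. How the authors' counting treated reads that fit several segments, or reads changed by somatic mutation, is not stated, so counts of such segments are uncertain. The constant genes share shorter runs. Ighg2b and Ighg3 had 88 bases in common, Iglc2 and Iglc3 had 79, and Ighg2c and Ighg2b had 78. The counting's strand setting is not given either, so reads of genes antisense to a member cannot be told apart from its own.

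Total counts per library were 14609431 to 17125440 in old Fabp4 shRNA livers, 15009727 to 15951036 in old control livers and 14243344 to 16414852 in young livers. The 1 young column whose number matches no labelled animal is called the unnumbered young library. Its values in the deposited FPKM table (fragments scaled to gene length and depth) come from other reads than its count column, and its count column carries skeletal muscle RNA: 6 muscle genes summed to 3087 CPM (counts scaled to library size), against 0.589 to 73.4 CPM in the other 8 libraries. Among those 8, old Fabp4 shRNA replicate 3 held the 73.4 CPM, and the rest lay at 0.589 to 2.51 CPM. Fabp4 did not follow its label, with 11.2, 3.81 and 7.58 CPM in old Fabp4 shRNA libraries, 7.21, 13.6 and 10.9 CPM in old control libraries, and 3.40, 2.67 and 64.8 CPM in young libraries, the last of them the unnumbered one. Groups are therefore called by their labels. The order of libraries within a group is the same throughout: replicates 1, 3 and 6 for old Fabp4 shRNA, 1, 2 and 5 for old control, and 1, 5 and the unnumbered library for young.

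The members together made up little of liver RNA. Their summed level, in CPM scaled by edgeR's trimmed mean of M values (TMM), was 368, 179 and 304 in old Fabp4 shRNA livers, 432, 307 and 727 in old control livers, and 140, 161 and 162 in young livers. Every old library lay above every young one, while the old Fabp4 shRNA and old control ranges overlapped. Heavy and light constant genes held most of this level. The V members together reached 22.6, 24.4 and 23.1 CPM in old Fabp4 shRNA livers, 24.2, 17.7 and 32.7 CPM in old control livers, and 9.46, 6.18 and 13.7 CPM in young livers. With the reads recovered from the FPKM table in place of its count column, the unnumbered young library held 91.7 CPM of members, unscaled, against 156 CPM from its counts.

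**Figure D1:**
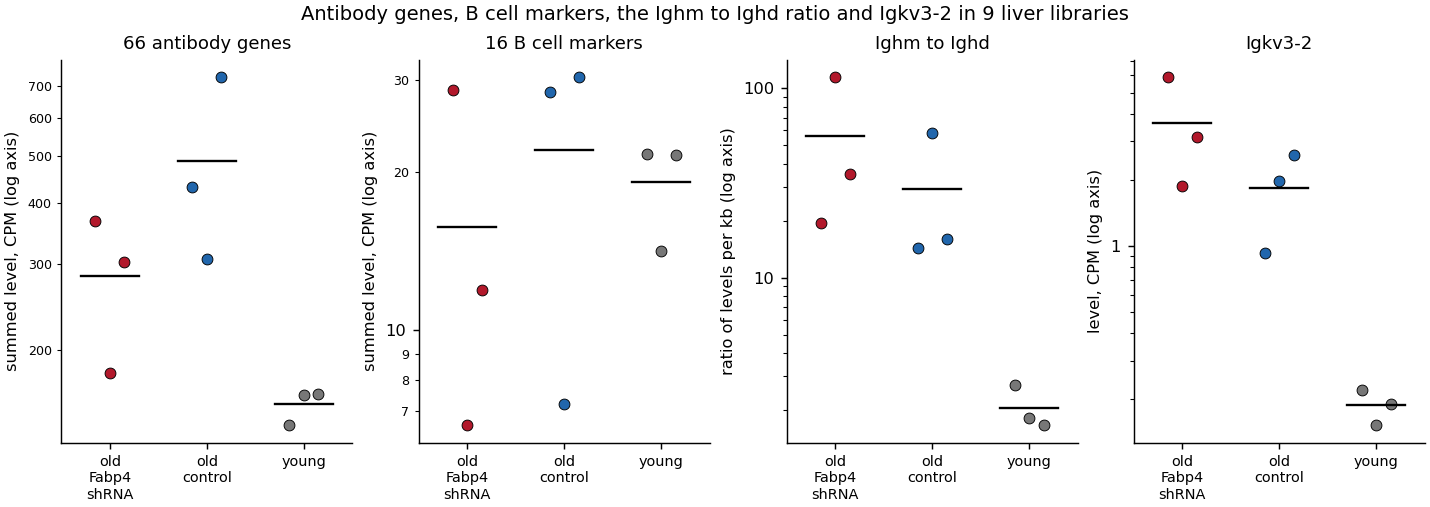
Summed level of the 66 antibody genes, summed level of 16 B cell markers, ratio of Ighm to Ighd levels per kilobase, and level of Igkv3-2 in each library (points, log axes; lines are group means; old Fabp4 shRNA, old control and young from left to right; n = 3 each). The antibody sum, the ratio and Igkv3-2 lie higher in all 6 old libraries than in the 3 young ones, while the B cell marker sums overlap, from 6.56 to 30.4 CPM over all libraries.

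Of the 66 members, 20 passed the filter on low counts and were tested among 14025 genes. These were the 7 heavy constant genes, the 4 light constant genes, Jchain, Iglv1 and 7 V kappa segments; no V heavy segment passed. Igkv3-2, Igkv10-96, Igkv1-110 and Igkv5-39 reached the filter's level in no young library and passed through the old groups, so a difference from young was built into their passing. Igkv6-23 reached it in 0 old Fabp4 shRNA libraries, 3 old control libraries and 1 young library, and so passed mainly through old control. The counts over tested members are therefore given as descriptions only. The 3 comparisons share libraries and are not independent of each other.

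In old control against young liver, 4 of 7 heavy constant genes, 2 of 4 light constant genes, Jchain and 4 V segments stood higher at an unadjusted p under 0.05. Igkc, the only kappa constant gene, was at 177, 146 and 329 CPM in old control livers and at 51.5, 68.0 and 56.4 CPM in young livers. Every old control library was above every young one. The log2 fold change was 1.89 ± 0.37 (standard error), with an adjusted p of 0.165 (edgeR's quasi-likelihood test, Benjamini-Hochberg over all tested genes). No member passed the adjusted threshold of 0.05 in this comparison, where 0.0357% of all tested genes did, all of them higher. These 11 of 20 members were higher and 0 lower at that unadjusted p, against 6.42% and 4.07% of all tested genes. The groups did not overlap, with old control above, for 12 of 20 members, against 8.89% of all tested genes; 0 members lay apart with old control below, against 8.26%. By DESeq2 6 of 66 members were called (Igkc, Ighm, Igha, Ighg2c, Jchain and Igkv3-2), beside 105 genes higher and 57 lower of all 25803. By edgeR without the filter 4 of 66 were called, beside 95 genes higher and 42 lower of 25803. Limma-trend on log2(FPKM + 1) called 1 of 20 members, with 13 genes higher and 5 lower of 14022. On log2(FPKM + 0.1) it called 2 of 20, with 19 higher and 2 lower of 14022.

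Igha, the constant gene of IgA, the class of gut and bile, was at 54.9, 36.9 and 100.3 CPM in old control livers and at 23.3, 15.3 and 25.6 CPM in young livers. The ranges were apart, and the log2 fold change was 1.58 ± 0.36 (adjusted p = 0.192). Ighm, the constant gene of IgM, was at 33.8, 33.8 and 116.6 CPM in old control livers and at 14.6, 6.56 and 8.94 CPM in young livers. Here too the ranges were apart, although old control replicate 5 alone carried over 3 times the level of the other 2. The change was 2.61 ± 0.62 (adjusted p = 0.258). Without old control replicate 5 the change of Ighm was 1.75, and without it the median change of all tested members was 0.96, against 1.33 with all libraries.

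Jchain was at 20.2, 16.6 and 49.0 CPM in old control livers and at 5.25, 10.2 and 11.6 CPM in young livers. No value of the groups overlapped, and the change was 1.67 ± 0.46 on the log2 scale (adjusted p = 0.296). The IgG genes did not move as 1 block. Ighg2c, the IgG2c gene of C57BL/6 mice, was at 52.5, 16.4 and 46.6 CPM in old control livers and at 13.4, 13.2 and 10.3 CPM in young livers, a change of 1.65 ± 0.40 (adjusted p = 0.246). Ighg2b had 39.4, 18.2 and 20.8 CPM in old control livers, against 4.73, 16.0 and 11.2 CPM in young livers, a change of 1.29 ± 0.56 (adjusted p = 0.467). For both the old control libraries lay above the young ones, as they did for Ighg3. Ighg1 stood at 17.7, 15.6 and 13.5 CPM in old control livers, against 5.47, 17.02 and 15.01 CPM in young livers, and the ranges overlapped. Ighd, which marks B cells that have not switched, was at 2.38, 0.589 and 7.32 CPM in old control livers and at 5.47, 3.66 and 5.43 CPM in young livers. Its lowest and its highest value were both in old control livers.

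**Figure D2:**
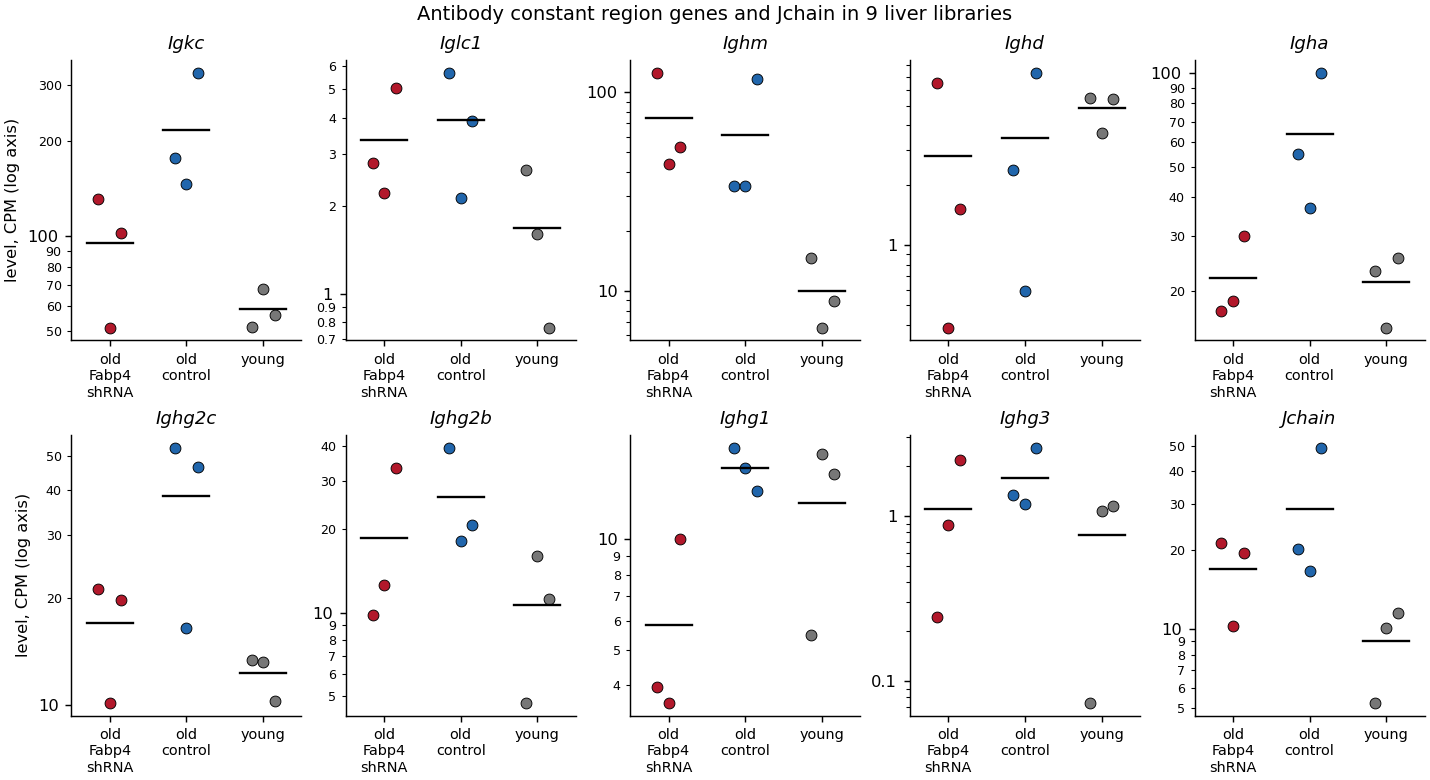
Levels of 9 constant region genes and Jchain in CPM (log axes, a scale of its own for each gene) in each library; points are libraries, lines are group means, groups run from old Fabp4 shRNA to old control to young (n = 3 each). Igha and Igkc are lower in every old Fabp4 shRNA library than in every old control library, whereas Ighm is high in both old groups and Ighd overlaps in all 3.

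In old Fabp4 shRNA against young liver, the heavy chain of IgM stood apart while IgA did not. Ighm was at 125, 43.7 and 53.2 CPM in old Fabp4 shRNA livers and at 14.6, 6.56 and 8.94 CPM in young livers. The lowest old value was about 3 times the highest young one, and the change was 2.88 ± 0.63 on the log2 scale (adjusted p = 0.314). Igha was at 17.3, 18.6 and 30.1 CPM in old Fabp4 shRNA livers and at 23.3, 15.3 and 25.6 CPM in young livers, with overlapping ranges. Ighg1 was at 3.97, 3.59 and 9.98 CPM in old Fabp4 shRNA livers and at 5.47, 17.02 and 15.01 CPM in young livers. Those ranges overlapped as well, and the change was -1.09 ± 0.45 (adjusted p = 0.529).

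Igkv3-2 was the only member called in any comparison by the edgeR test with the filter. It had 96, 34 and 60 counts in old Fabp4 shRNA livers (5.86, 1.88 and 3.13 CPM) and 3, 2 and 3 counts in young livers (0.222, 0.153 and 0.192 CPM). The libraries of both groups lay far apart. It rose by 4.20 ± 0.65 on the log2 scale, with an adjusted p of 0.0408, and 1 of 20 members was called higher in a comparison that called 0.057% of all tested genes, 0.0499% as higher and 0.00713% as lower. Igkv3-2 passed the filter through the old groups, so a difference from young was built into its being tested. Its call and the count of 1 of 20 are given as descriptions only. The young values are at or under the 3 counts used as the floor of detection, so the size of this change rests on few reads. Over the 3 libraries of each group, 190 counts in old Fabp4 shRNA livers stood against 8 in young livers, a ratio of 22.9 per total count (exact 95% interval 11.4 to 53.9, counting error only). The call was lost in 8 of the 9 fits that left out 1 library, with adjusted p from 0.0532 to 0.255, and held only without old Fabp4 shRNA replicate 1, at 0.0317. In those 9 fits its change stayed between 3.68 and 4.51. Limma-voom (adjusted p = 0.266) and a fit to the 6 libraries compared (0.118) did not call it.

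At an unadjusted p under 0.05, 5 of 20 members stood higher and 1 stood lower in the old Fabp4 shRNA livers than in young ones, against 4.43% and 4.5% of all tested genes. Besides Igkv3-2 and Ighm these were Igkv10-96, with a change of 2.29 ± 0.64 (adjusted p = 0.367), Igkv5-39, with 2.32 ± 0.92 (adjusted p = 0.504), and Igkv1-110, with 1.74 ± 0.80 (adjusted p = 0.557). Of these 3 segments, Igkv10-96 alone had all old Fabp4 shRNA libraries above the young ones. The groups were apart, with old Fabp4 shRNA above, for 4 of 20 members, against 6.79% of all tested genes, and below for 0, against 6.67%. Besides Igkv10-96 the members above were Igkv3-2, Ighm and Iglv1. Igkv3-2, Igkv10-96, Igkv5-39 and Igkv1-110 passed the filter through the old groups, so their place in these counts supports no difference. Old control livers held Igkv3-2 too, at 16, 27 and 41 counts, which is 0.930, 1.99 and 2.59 CPM. Against young, its change there was 3.22 ± 0.65 (adjusted p = 0.165), and that of Igkv10-96 was 2.48 ± 0.64 (adjusted p = 0.247).

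In old Fabp4 shRNA against old control liver, no member was called, and 0% of the 14025 genes was. DESeq2, the fit without the filter and limma on log2 FPKM called no member either. At an unadjusted p under 0.05, 0 of 20 members were higher and 5 lower, against 3.27% and 3.48% of all tested genes. The groups were apart, with old Fabp4 shRNA below, for 4 of 20 members, against 5.67% of all tested genes, and above for 0, against 6.02%. Igha showed the smallest p of the members, at 17.3, 18.6 and 30.1 CPM in old Fabp4 shRNA livers and at 54.9, 36.9 and 100.3 CPM in old control livers. Its change was -1.54 ± 0.36 (adjusted p = 0.728). Igkc was at 131, 51.3 and 103 CPM in old Fabp4 shRNA livers and at 177, 146 and 329 CPM in old control livers, a change of -1.19 ± 0.36 (adjusted p = 0.728).

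The other lower members were of the IgG group or a V segment. Ighg1 had 3.97, 3.59 and 9.98 CPM in old Fabp4 shRNA livers, against 17.7, 15.6 and 13.5 CPM in old control livers. No value overlapped, and the change was -1.41 ± 0.46. Ighg2c was at 21.1, 10.1 and 19.7 CPM in old Fabp4 shRNA livers and at 52.5, 16.4 and 46.6 CPM in old control livers, with overlap at old control replicate 2 and a change of -1.18 ± 0.40. Igkv6-23 had 1, 4 and 0 counts in old Fabp4 shRNA livers and 10 counts in each old control liver. The counts are few, and the segment passed the filter through the old control libraries, so its place among the 5 lower members and the 4 lying apart supports no difference. Ighm, at 125, 43.7 and 53.2 CPM in old Fabp4 shRNA livers and 33.8, 33.8 and 116.6 CPM in old control livers, overlapped with a change of 0.27 ± 0.58. The median change over the 20 members was -0.39, against -0.01 over all tested genes. Without old control replicate 5, which had the highest antibody sum of all libraries, that median was -0.11, and without old control replicate 2 it was -0.69.

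**Figure D3:**
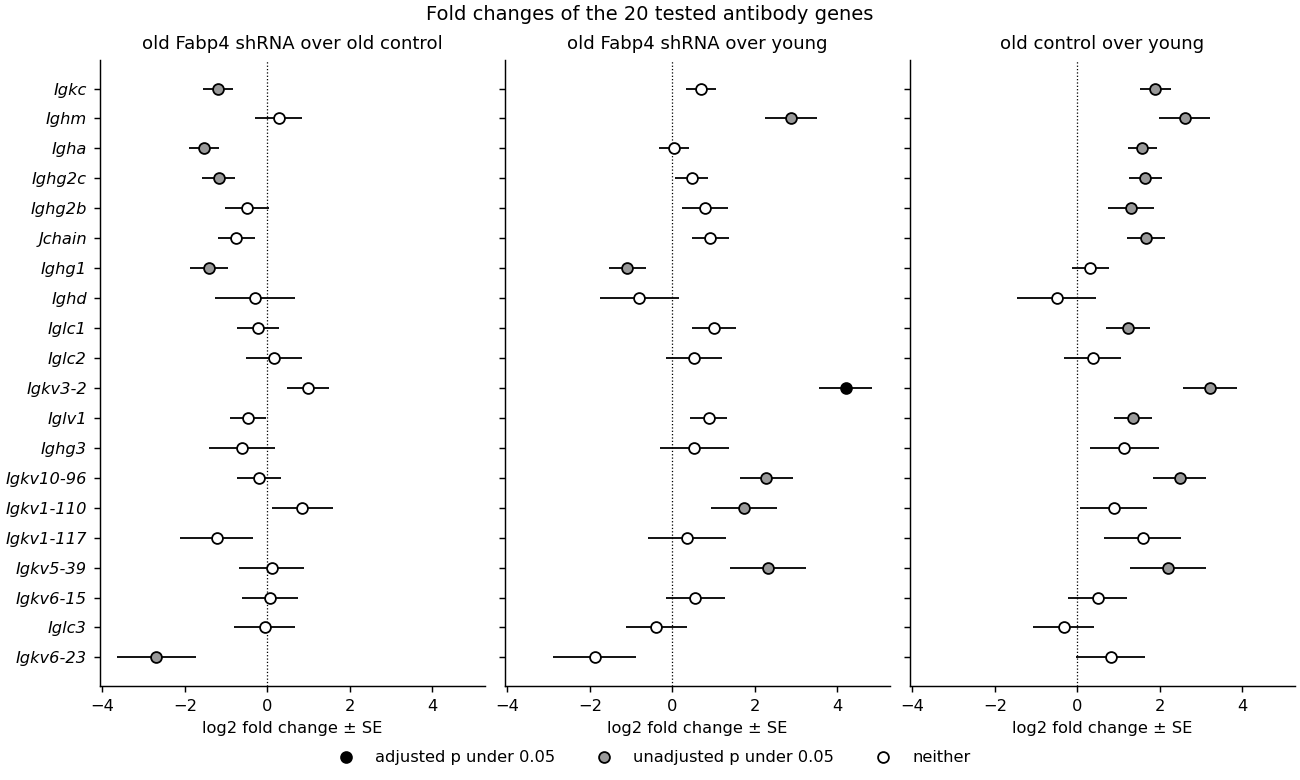
Log2 fold change with its standard error (horizontal axis) of the 20 tested members (rows) in each comparison, from edgeR's fit to all 9 libraries; black points passed an adjusted p under 0.05, grey points an unadjusted p under 0.05. Only Igkv3-2 in old Fabp4 shRNA over young is black, and Igha is at -1.54, 0.04 and 1.58 from left to right.

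The make-up of the heavy chains was compared as the share of each constant gene in the summed heavy constant level per kilobase of gene length, so that gene length does not set the order. Ighm took 68.1%, 52.2% and 39.0% in old Fabp4 shRNA livers, 17.7%, 31.1% and 40.6% in old control livers, and 23.3%, 10.2% and 13.4% in young livers. The old Fabp4 shRNA shares were all above the young ones, and overlapped the old control shares only at the top of that group. Means were 53.1% ± 14.6 in old Fabp4 shRNA livers, 29.8% ± 11.5 in old control livers and 15.6% ± 6.80 in young livers (SD, n = 3 each). The differences were 37.5 percentage points for old Fabp4 shRNA over young (exact two-sided permutation test, p = 0.1, the smallest that 3 against 3 libraries allow) and 23.3 points for old Fabp4 shRNA over old control (exact p = 0.2).

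The Igha share went the other way. It was 6.63%, 15.7% and 15.6% in old Fabp4 shRNA livers, 20.3%, 24.0% and 24.7% in old control livers, and 26.2%, 16.8% and 27.1% in young livers. All old Fabp4 shRNA shares lay below those of both other groups, by only about 1 point between old Fabp4 shRNA replicate 3 and young replicate 5. The differences were -10.3 points against old control and -10.7 points against young (exact permutation test, p = 0.1 each). Shares of 1 total depend on each other, so a higher Ighm share lowers the Igha share. In CPM, Igha overlapped between old Fabp4 shRNA and young livers, where Ighm stood apart. Between old Fabp4 shRNA and old control livers Igha stood apart in CPM, and Ighm overlapped. Old control over young differed by -0.38 points (exact p = 1.0), the groups overlapping.

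IgG genes together made up 21.7%, 31.7% and 44.3% of the heavy constant level in old Fabp4 shRNA livers, 60.8%, 44.4% and 32.2% in old control livers, and 42.0%, 67.3% and 51.4% in young livers. Ighg2c was the leading IgG gene per kilobase in all 9 libraries. Lambda light chains took 6.12%, 6.36% and 8.07% of the light constant level in old Fabp4 shRNA livers, 4.88%, 2.66% and 2.72% in old control livers, and 11.7%, 6.03% and 4.13% in young livers. Old Fabp4 shRNA exceeded old control in every library, by 3.43 points on average (exact permutation test, p = 0.1), while the young shares, from 4.13% to 11.7%, overlapped those of both old groups. Adjusted over the 9 tests of class shares by Benjamini-Hochberg, the smallest value was 0.225, so none of the differences passed 0.05.

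**Figure D4:**
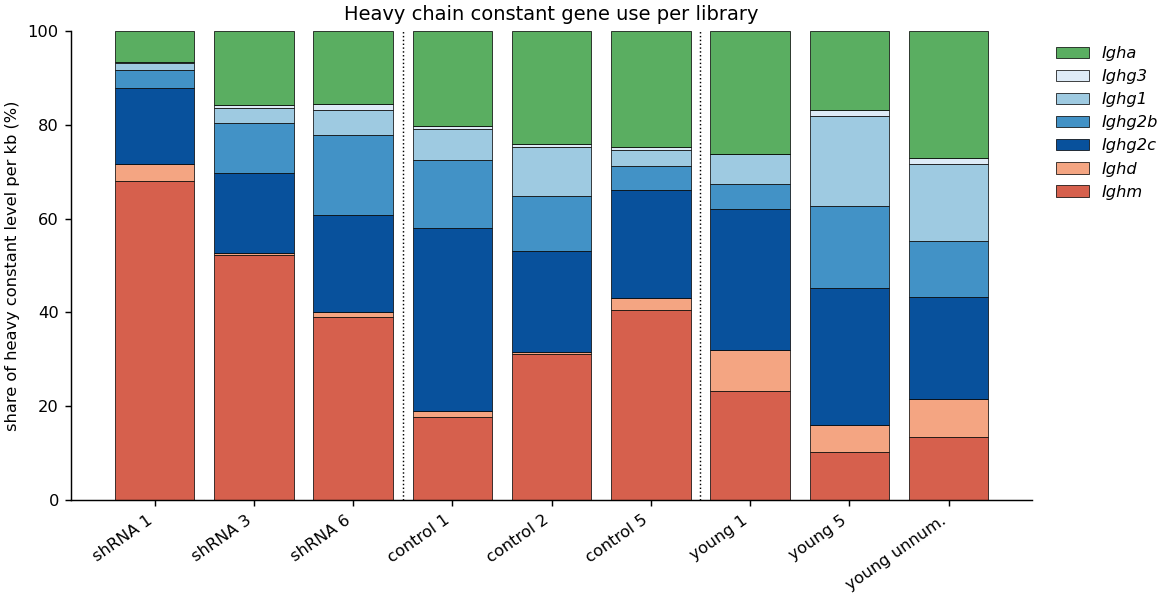
Share of each heavy chain constant gene in the heavy constant level per kilobase (vertical axis, percent) in the 9 libraries, from old Fabp4 shRNA on the left to young on the right. Ighm takes 39.0% to 68.1% in the 3 old Fabp4 shRNA libraries and 10.2% to 23.3% in the 3 young ones; Ighd is visible mainly in the young libraries.

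Young livers stood apart in the Ighd share and in the ratio of Ighm to Ighd. The Ighd share of the heavy constant level per kilobase was 3.52%, 0.457% and 1.10% in old Fabp4 shRNA livers, 1.24%, 0.536% and 2.53% in old control livers, and 8.63%, 5.66% and 8.07% in young livers. The ratio of Ighm to Ighd levels per kilobase was 19.3, 114 and 35.4 in old Fabp4 shRNA livers, 14.3, 57.9 and 16.0 in old control livers, and 2.70, 1.80 and 1.66 in young livers. Each of the 6 old libraries had a ratio at least 5 times that of any young library. With the recovered reads, the unnumbered young library had a ratio of 1.58. This ratio was chosen after its values were seen and was not tested. Ighd itself had overlapping levels in all 3 groups, and it varied over 10-fold within each old group. The gene of the pair whose level was apart was Ighm, higher in all 6 old libraries than in the young ones.

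V use was described mainly in the kappa locus, which held 292, 329 and 325 V counts in old Fabp4 shRNA livers, 308, 193 and 421 in old control livers, and 88, 63 and 166 in young livers. Igkv3-2 took 32.9% (95% Wilson interval 27.7% to 38.5%), 10.3% and 18.5% of them in old Fabp4 shRNA livers. In old control livers its share was 5.19%, 14.0% and 9.74%, and in young livers 3.41%, 3.17% and 1.81%. Every old share was above every young one, and old Fabp4 shRNA and old control overlapped. The young shares rest on 8 counts of Igkv3-2 in all, so their gap to the lower old control shares rests on few reads. Of the reads recovered for the unnumbered young library, 0 of 42 V kappa reads were of Igkv3-2, which allows a share of up to 7.14%.

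Igkv3-2 led the kappa locus in old Fabp4 shRNA replicates 1 and 6 and in old control replicate 2, and was level with Igkv5-39 at 34 counts in old Fabp4 shRNA replicate 3. Other libraries had other leaders. In old control replicate 1, Igkv4-91 and Igkv1-117 had 30 counts each, and in old control replicate 5 Igkv3-12 had 64 counts, 15.2% of V kappa (12.1% to 18.9%). In young livers the leaders were Igkv15-103 with 16 of 88 counts, Igkv6-15 with 10 of 63 and, in the unnumbered library, Igkv6-32 with 17 of 166. No segment led in more than 1 young library. Intervals cover counting error only.

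**Figure D5:**
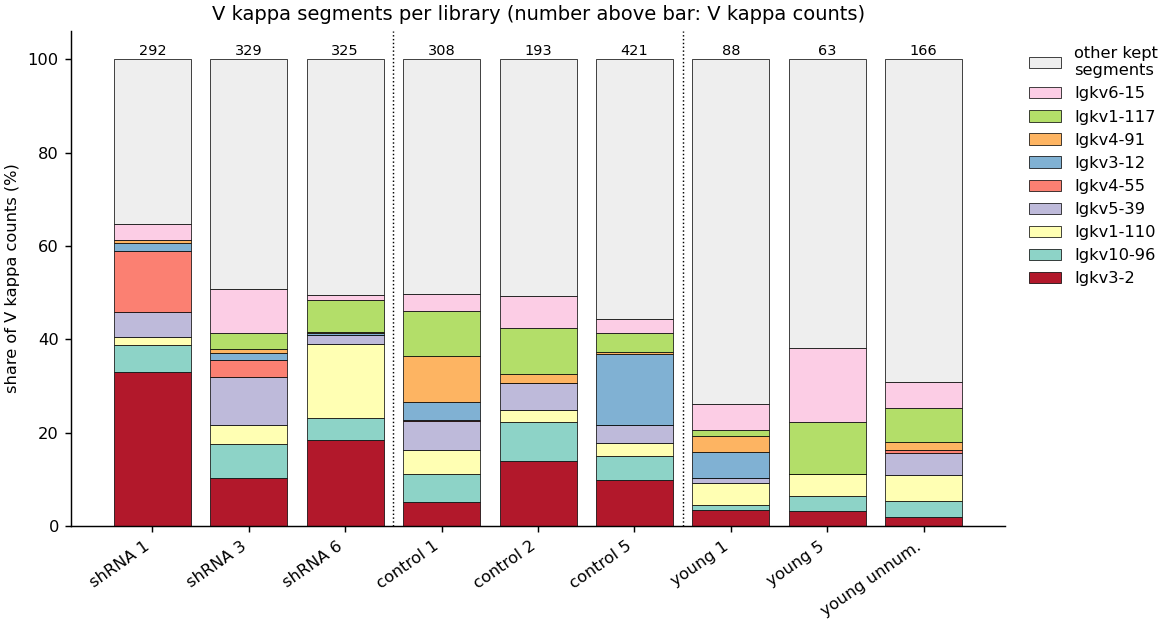
Share of V kappa counts (vertical axis, percent) taken by Igkv3-2 (dark red, at the base), 8 other named segments and all remaining kept segments in the 9 libraries, from old Fabp4 shRNA on the left to young on the right, with the V kappa counts above each bar. The base is widest in old Fabp4 shRNA replicate 1, at 32.9%, and no more than 3.41% in any young library.

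Several segments belonged mostly to 1 library. Igkv3-12 had 64 of its 92 counts in old control replicate 5, and Igkv4-55 had 38 of its 52 counts in old Fabp4 shRNA replicate 1, with 12 more in replicate 3. Igkv4-91 had 30 of 48 counts in old control replicate 1. Igkv6-17 in old control replicate 5, Igkv6-20 in old Fabp4 shRNA replicate 1 and Igkv8-19 in old Fabp4 shRNA replicate 6 likewise had most of their counts there. At the other end, 8 of the 40 kappa members had counts in all 9 libraries, and Igkv6-20, with 22 counts in all, had none in young livers. Igkv10-96 was even among old livers, with 17, 24 and 15 counts in old Fabp4 shRNA livers, 18, 16 and 22 in old control livers, and 1, 2 and 6 in young livers.

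The spread over kappa segments was summarised by the effective number, the number of equally used segments that would give the same chance of drawing 1 segment repeatedly. It was 7.21, 17.6 and 12.9 in old Fabp4 shRNA livers, 21.2, 17.4 and 17.4 in old control livers, and 14.5, 12.8 and 20.3 in young livers. Old Fabp4 shRNA replicate 1 had the lowest value of the 9, and the groups overlapped. At 63 V kappa reads per library, the depth of the shallowest, 19.6, 24.7 and 22.9 segments would be seen in old Fabp4 shRNA livers, 25.9, 24.9 and 25.0 in old control livers, and 23.2, 21 and 24.9 in young livers. The Igkv3 family, 5 members with Igkv3-2 among them, took 42.5%, 15.8% and 24.0% of V kappa counts in old Fabp4 shRNA livers, 12.0%, 17.1% and 34.2% in old control livers, and 18.2%, 7.94% and 4.82% in young livers. In old Fabp4 shRNA replicate 1, 96 of the 124 Igkv3 counts were of Igkv3-2. In old control replicate 5, 64 of the 144 were of Igkv3-12 and 41 of Igkv3-2.

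V kappa levels per kilobase amounted to 19.4%, 51.3% and 23.3% of the Igkc level in old Fabp4 shRNA livers, 14.5%, 13.9% and 11.6% in old control livers, and 18.2%, 10.2% and 27.1% in young livers. A complete kappa transcript carries a V and a C part, so V reads were counted at a fraction of the constant part throughout, highest in old Fabp4 shRNA replicate 3. V heavy counts were fewer, with 42, 79 and 70 in old Fabp4 shRNA livers, 51, 26 and 39 in old control livers, and 22, 6 and 26 in young livers. Ighv1-53 led in old Fabp4 shRNA replicates 1 and 3 with 11 and 24 counts, and Ighv9-3 and Ighv2-2 were level at 10 in replicate 6. Old control libraries were led by Ighv2-2, Ighv6-3 and Ighv1-26, and young libraries by Ighv3-6, Ighv1-81 and Ighv2-2. The 11 V heavy members held 46.6% of all V heavy counts, and the rest lay in segments under the minimum. Iglv1 led the lambda locus in all 9 libraries, at 29, 29 and 36 counts in old Fabp4 shRNA livers, 53, 17 and 47 in old control livers, and 14, 12 and 14 in young livers.

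The B cell marker sums overlapped between all groups. The 16 B cell surface and identity genes summed to 28.8, 6.56 and 11.9 CPM in old Fabp4 shRNA livers, 28.5, 7.21 and 30.4 CPM in old control livers, and 21.7, 14.1 and 21.6 CPM in young livers. Old Fabp4 shRNA replicate 3 and old control replicate 2 had the lowest sums. Of 13 tested, 0 were called in any comparison by edgeR, and at an unadjusted p under 0.05 there was 1, higher in old control than in young livers. Of all tested genes, 6.42% were higher there at that p. The median change over these 13 was -0.46 for old Fabp4 shRNA over old control, -0.32 for old Fabp4 shRNA over young and 0.04 for old control over young, with 2, 2 and 7 genes above 0. Among the 3 most abundant, Cd72 was at 3.91, 0.772 and 2.25 CPM in old Fabp4 shRNA livers, 7.38, 1.77 and 3.60 CPM in old control livers, and 0.813, 1.37 and 1.40 CPM in young livers. Cd22 and Cd79b, parts of the B cell receptor's signalling, ran from 0.515 to 3.59 CPM and from 0.809 to 3.98 CPM over the 9 libraries.

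The plasma cell list is dominated by genes that hepatocytes also express. Its 14 genes summed to 406, 767 and 586 CPM in old Fabp4 shRNA livers, 547, 742 and 442 CPM in old control livers, and 535, 503 and 737 CPM in young livers, and Sdc1, Xbp1 and Txndc5 gave most of this. Of the 12 tested, 0 were called by edgeR. At an unadjusted p under 0.05, 1 was lower in old Fabp4 shRNA than in old control livers, 1 was higher and 1 lower in old Fabp4 shRNA than in young livers, and 2 were higher in old control than in young livers. The shares of all tested genes were 3.48%, 4.43%, 4.5% and 6.42%, in the same order. The less abundant genes of the list did not share 1 pattern, as some of them, picked after their values were seen, show. Derl3 was at 3.24, 7.78 and 15.2 CPM in old Fabp4 shRNA livers, 3.02, 14.4 and 8.40 CPM in old control livers, and 1.03, 1.98 and 0.447 CPM in young livers. Slamf7 was at 0.611, 0.607 and 1.15 CPM in old Fabp4 shRNA livers, 0.697, 0.809 and 1.52 CPM in old control livers, and 0.444, 0.229 and 0.447 CPM in young livers. Both were higher in all 6 old libraries than in the 3 young ones. Fkbp11 went the other way, with all 6 old libraries below the 3 young ones, though by little at the closest. It was at 10.1, 3.53 and 10.6 CPM in old Fabp4 shRNA livers and 7.38, 7.14 and 13.4 CPM in old control livers. In young livers it was at 13.5, 17.6 and 15.6 CPM. Mzb1 overlapped between old and young livers and was at 0.366, 0.993 and 1.10 CPM in old Fabp4 shRNA livers, 2.67, 1.40 and 2.40 CPM in old control livers, and 2.66, 0.840 and 0.830 CPM in young livers. Tnfrsf17, the receptor that keeps plasma cells alive, was at or near 0 in all libraries.

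The 5 genes of age-associated B cells, a memory-like kind of B cell known from old mice, summed to 12.5, 10.8 and 12.8 CPM in old Fabp4 shRNA livers, 22.8, 14.7 and 22.2 CPM in old control livers, and 11.3, 9.08 and 10.03 CPM in young livers. Every old control library lay above all libraries of both other groups. Most of this level came from Zeb2, Cd86 and Itgax, which macrophages and dendritic cells also express. Of these, Cd86 was at 1.71, 0.993 and 1.78 CPM in old Fabp4 shRNA livers, 6.04, 3.09 and 3.47 CPM in old control livers, and 2.07, 1.76 and 2.11 CPM in young livers. Of 3 tested, 0 were called. At an unadjusted p under 0.05, 2 were lower in old Fabp4 shRNA than in old control livers, against 3.48% of all tested genes. In old control over young, 3 were higher at that p, against 6.42%. Tbx21 and Fcrl5, the remaining genes of the list, were too low to test. Of 6 tested genes of class switching and the germinal centre, 0 were called and 0 had an unadjusted p under 0.05 in any comparison. Of 6 tested genes of plasma cell homing and survival, 0 were called; at that p, 1 was lower in old Fabp4 shRNA than in old control livers and 1 was higher in old control than in young livers.

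Markers of other cell types also varied between libraries. The 5 neutrophil genes summed to 5.52 to 14.3 CPM in old Fabp4 shRNA livers, 16.4 to 53.4 CPM in old control livers and 11.4 to 22.3 CPM in young livers. The old Fabp4 shRNA and old control ranges were apart. All 4 tested genes were lower in old Fabp4 shRNA livers at an unadjusted p under 0.05, against 3.48% of all tested genes. Of the defining genes of this list, Ly6g was at or near 0 in all libraries. The 5 Kupffer cell genes summed to 60.6 to 168 CPM in old Fabp4 shRNA livers, 115 to 433 CPM in old control livers and 103 to 222 CPM in young livers, with overlap. The 8 T cell genes summed to 9.54 to 10.7 CPM in old Fabp4 shRNA livers, 4.12 to 16.03 CPM in old control livers and 7.71 to 10.6 CPM in young livers, with overlap. The 5 red blood cell genes summed to 170.05 to 359 CPM in old Fabp4 shRNA livers, 188 to 328 CPM in old control livers and 520.4 to 1025 CPM in young livers, so both old groups lay below the young one. The 6 hepatocyte genes, at 0 in no library, summed to 76608 to 90479 CPM in old Fabp4 shRNA livers, 87496 to 134368 CPM in old control livers and 107455 to 167467 CPM in young livers. All old Fabp4 shRNA sums lay below all young ones. At an unadjusted p under 0.05, 2 of 6 genes were lower than in young livers, against 4.5% of all tested genes. Most of the sum was Alb, and only Alb and Apoa1 were apart between old Fabp4 shRNA and young livers. Ttr, Cyp2e1, Cps1 and Tat overlapped. The 5 endothelial genes summed to 69.3 to 140.2 CPM in old Fabp4 shRNA livers, 69.5 to 140.1 CPM in old control livers and 57.9 to 66.4 CPM in young livers. Like the antibody sum, their sum was higher in all 6 old libraries than in the 3 young ones. At that p, 3 of 5 were higher than in young livers in each old group. Of all tested genes, 4.43% were higher in old Fabp4 shRNA over young and 6.42% in old control over young. By edgeR, 0 genes of these 6 lists were called in any comparison. The part of these cell types or of blood content in the antibody results was not tested.

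The 9 genes of antibody transport and Fc receptors, led by Pigr, Fcgrt and Fcgr2b, had 0 called of 8 tested by edgeR. At an unadjusted p under 0.05, 4 were lower in old Fabp4 shRNA than in old control livers, 1 was higher in old Fabp4 shRNA than in young livers, and 4 were higher in old control than in young livers. The shares of all tested genes were 3.48%, 4.43% and 6.42%, in the same order. Pigr, which carries IgA across hepatocytes into bile, ranged from 1194 to 1912 CPM in old Fabp4 shRNA livers, 985 to 1749 CPM in old control livers and 1102 to 1494 CPM in young livers, with overlap between all groups.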

How the data were processed

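Liver RNA of 9 mice was sequenced; reads were aligned with HISAT2 to GRCm38.p6, per the submitters' processing notes. The labels' RNA extraction text names NRVMs, usually neonatal rat ventricular myocytes, while the tissue is given as liver. The program that counted reads, its strand setting and the annotation release are not given. Of 2 deposited tables, 1 holds raw read counts for 54532 genes in 9 columns, with no scaling by the authors. The other holds FPKM, fragments that the authors divided by gene length and depth. In 8 columns FPKM was a fixed multiple of count per length, within 0.001, for 100% of 10478 genes, and in the unnumbered young column for 0.229%. Of 13111 recovered values under 200 reads from that column, 99.98% were whole within 0.05 reads, 11806137 reads in all. The number of columns matching no sample or group was 0.

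The tests used edgeR 4.0.16 (R 4.3.3): filterByExpr by group, TMM factors, a robust quasi-likelihood fit of 3 group means to all 9 libraries with 6 residual degrees of freedom, and Benjamini-Hochberg adjustment over 14025 genes. The biological coefficient of variation was 0.320. The filter's level was 0.627 CPM. Lengths read from the FPKM table equalled GENCODE mouse release 21 exon lengths for 66 of 66 members, and serve for levels per kilobase. Floors (3 counts) and intervals (95%) cover counting error only. Class shares were compared with exact permutation tests. The pipeline was tested on simulated data. Alternatives were other scalings and filters, DESeq2 1.42.0, limma 3.58.1 (voom, and trend on log2 FPKM), 6-library fits, recovered reads, a block for replicate numbers, and fits without each library. Named are all constant members and Jchain, the leading V segments and called members. Also named are the 4 V segments with the smallest p per comparison and segments beside the minimum. Of the B cell, plasma cell, age-associated B cell and Fc receptor lists, the 3 most abundant genes are named. Others are pointed out. Levels of Ighg3, Iglc1, Iglc2 and Iglc3 are not printed in the text, nor are all fold changes of the named V segments. Members and lists were chosen with earlier results of these data known.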

Additional observations from a re-analysis of the deposited data

How the results depend on the processing

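The 9 differences in class share kept their direction under all alternatives run except the following. Igha in old control over young, at -0.38 percentage points, was 0.40 on raw counts without length scaling, 1.90 with the recovered reads, and -3.66 to 1.501 on leaving out single libraries. Lambda in old Fabp4 shRNA over young, at -0.44, was -2.02 to 1.77 on leaving out single libraries, positive only without young replicate 1. Ratios of group means were taken for the summed level, the effective number of kappa segments and the leading share. Under all alternatives run, these moved by less than their propagated spread. That spread was wide, for example 3.17 ± 1.42 for the summed level in old control over young. Leaving out single libraries was added for these 3 after seeing the data. With 3 libraries per group, dropping 1 shifts a group mean by less than its SD, so that check could not have come out otherwise.

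The number of called members was 0 for old Fabp4 shRNA over old control under every alternative run. For old Fabp4 shRNA over young, at 1, it was 2 by DESeq2, 0 by limma-voom, 0 with the 6 libraries compared, 2 and 3 by limma-trend on log2 FPKM plus 1 or 0.1, and 0 to 1 on leaving out single libraries. There DESeq2 called 43 genes higher and 61 lower of all 25803, and limma-voom and the 6-library fit called 0. Limma-trend called 21 higher and 32 lower of 14022 with a pseudocount of 1, and 36 and 39 with 0.1. For old control over young, at 0, it was 4 without the filter, 6 by DESeq2, 1 and 2 by limma-trend with a pseudocount of 1 or 0.1, and 0 on leaving out any library. For DESeq2, limma-trend and the fit without the filter, the counts over all genes in that comparison are given above. The cause of these differences was not tested. The 6-library and leave-one-out fits hold fewer samples, and the part of this was not tested either.

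Same-numbered libraries did not deviate together (correlations of -0.05 to 0.11) and the labels give numbers no shared origin. With the numbers as a replicate block, 0, 2 and 3 of 20 members were called in the 3 comparisons. Of all 14025 genes, that fit called 25, 15 and 111 higher and 48, 8 and 47 lower. Igkv1-110 in old Fabp4 shRNA over old control changed with the block from 0.85 to -1.59. Without old Fabp4 shRNA replicate 6 it was -0.42, in a range of -0.42 to 1.31. Reversal was checked only for members with an unadjusted p under 0.05 in a comparison and for the V segments with the smallest p there. Among these, no other fold change reversed. The remaining named fold changes were not checked for reversal. They include Ighm in old Fabp4 shRNA over old control and Igha in old Fabp4 shRNA over young. With 63 to 421 V kappa and 6 to 79 V heavy counts per library, single V segments rest on few reads.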
